A study of Mus musculus with 30 samples.

Results

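Expression of 10 genes of the Krueppel-like factor (KLF) family, Klf2, Klf3, Klf4, Klf6, Klf7, Klf9, Klf10, Klf11, Klf13 and Klf16, was described in 30 RNA sequencing libraries of mouse bone marrow-derived macrophages. The genes were chosen by their symbols among the 24761 gene symbols of the authors' table, and each was represented by its transcript with the highest mean value. Macrophages had been grown with M-CSF from the marrow of wild-type C57Bl/6 mice, so that no group carried a genetic change. Cultures M2, M3 and M4 were given 1 µM metaproterenol hemisulfate (MPH), an agonist of the β2 adrenergic receptor, which raises cyclic AMP (cAMP), for 2 h. The vehicle DMSO was given instead to 7 cultures named D3 to D6, r1, r2 and UKD. All 10 cultures were then exposed for 0, 1 or 2 h to lipopolysaccharide (LPS), the bacterial ligand of Toll-like receptor 4, labelled as 100 ng/µL, with 1 library per culture and time. The labels do not say whether the cultures came from separate animals, so p-values measure the spread between libraries of these cultures, which may be technical.

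KLF proteins are zinc finger transcription factors that bind GC-rich and CACCC-containing DNA, as the related Sp proteins do. In macrophages Klf2 and Klf4 are known to restrain NF-kB-driven inflammatory gene expression, whereas Klf6 is known to promote it. Klf3 is a repressor that recruits the co-repressor CtBP, and Klf9, Klf10, Klf11, Klf13 and Klf16 share an N-terminal region that recruits the co-repressor Sin3.

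Values are the authors' RPKM, read counts scaled to transcript length and library depth, and each ± is an SD over libraries. Approximate depth was 5.38 to 92.1 M reads (M, mega) with a median of 41.3 M, and it was lowest in 3 libraries of 1 h, D6 (5.38 M), UKD (8.49 M) and D4 (9.71 M). No value of the table equals 0, and whether a constant had been added to the counts is not given in the sources used here. Markers of macrophages summed to 4754 to 7418 RPKM in MPH libraries and 4342 to 7724 RPKM in DMSO libraries, with all 10 of 10 reaching 1 RPKM in both. Markers of neutrophils summed to 41.1 to 90.5 RPKM in MPH libraries and 5.82 to 92.7 RPKM in DMSO libraries, and the part of these cells in the results was not tested. The 1 h library labelled M4 stood apart from M2 and M3, because its 6 cAMP check genes summed to 43.3 RPKM, inside the range of the DMSO libraries (5.70 to 73.6 RPKM), whereas the median of the MPH libraries was 455 RPKM. Tests at 1 h with MPH are therefore given also without it, whereas levels, means and correlations include it. Since these are bulk samples, fewer cells that express a gene and less of its RNA per cell cannot be told apart.

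The stretches of 250 bases before the transcription start are shown for Klf4, which stood furthest apart with MPH before LPS, for Klf2, its relative with a like known role, and for Klf6, the family member with the highest level. They are RefSeq sequences of the GRCm38.p6 build, at chr4:55532476-55532725 (minus strand), chr8:72318812-72319061 (plus strand) and chr13:5861239-5861488 (plus strand). Capitals mark TGACG, the core of the cAMP response element, the GC box GGGCGG and the MEF2 site, on either strand.
Klf4: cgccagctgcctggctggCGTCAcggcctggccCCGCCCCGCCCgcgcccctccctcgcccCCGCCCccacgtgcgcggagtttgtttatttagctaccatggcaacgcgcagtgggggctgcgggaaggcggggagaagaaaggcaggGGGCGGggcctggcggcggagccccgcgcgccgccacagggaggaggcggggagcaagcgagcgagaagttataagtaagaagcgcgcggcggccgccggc
Klf2: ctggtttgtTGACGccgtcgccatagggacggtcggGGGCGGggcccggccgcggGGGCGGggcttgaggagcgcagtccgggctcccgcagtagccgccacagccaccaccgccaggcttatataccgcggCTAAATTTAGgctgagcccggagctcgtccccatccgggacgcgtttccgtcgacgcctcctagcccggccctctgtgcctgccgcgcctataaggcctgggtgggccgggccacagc
Klf6: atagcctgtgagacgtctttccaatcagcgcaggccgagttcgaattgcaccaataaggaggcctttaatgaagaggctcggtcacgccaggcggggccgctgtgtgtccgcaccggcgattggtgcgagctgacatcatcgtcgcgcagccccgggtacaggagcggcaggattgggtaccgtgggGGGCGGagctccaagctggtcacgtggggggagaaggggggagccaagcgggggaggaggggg
The Klf4 stretch held 1 match to TGACG, with its first base 232 bases before the start, and 4 GC boxes, of which the pair with first bases at 217 and 212 shares 1 base. The Klf2 stretch held 1 match to TGACG at 241, 2 GC boxes, 1 CACCC and 1 MEF2 site at 118. The Klf6 stretch held 1 GC box and no TGACG. Of the 8 KLF genes with an entry, Klf9 and Klf13 held TGACG as well. Among 32851 such stretches of mouse genes, 17.8% held TGACG, 32.7% a GC box, 52% CACCC and 1.69% a MEF2 site. The AP-1 site TGANTCA (6.75% of stretches) matched in Klf9 only among the 8, and the CArG box (1.47%) in none of them. The 3 stretches were 74.0%, 71.2% and 64.8% GC, against a median of 52.4% over all. A match describes letters and is not evidence of binding. Klf10 and Klf16 are named only.

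Before LPS, Klf6 was the most abundant of the 10 genes. In DMSO cultures at 0 h it averaged 26.8 ± 5.18 RPKM (n = 7), with a range of 19.9 to 35.9 RPKM, and it lay above the next gene, Klf13, in 7 of 7 cultures. Klf13 (8.88 ± 1.86 RPKM), Klf10 (8.01 ± 3.12 RPKM), Klf2 (4.40 ± 2.70 RPKM), Klf3 (4.27 ± 1.02 RPKM), Klf4 (3.79 ± 2.35 RPKM) and Klf16 (3.46 ± 1.03 RPKM) followed. Klf9 (1.35 ± 0.979 RPKM), Klf7 (1.22 ± 0.328 RPKM) and Klf11 (1.04 ± 0.330 RPKM) were lowest. Apart from Klf6 and Klf13, the ranges of neighbours in this order overlapped. All 10 genes passed the filter of at least 1 RPKM in at least 3 libraries, but Klf11 reached 1 RPKM in 6 of 30 libraries and Klf9 in 14. The remaining family members were scarce: of 16 other KLF and Sp genes only Sp1, Sp2 and Sp3 passed the filter, and Klf1, Klf5, Klf12, Klf14, Klf15 and Klf17 reached at most 0.216 RPKM in any library and Klf8 at most 1.08 RPKM.

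**Figure D1:**
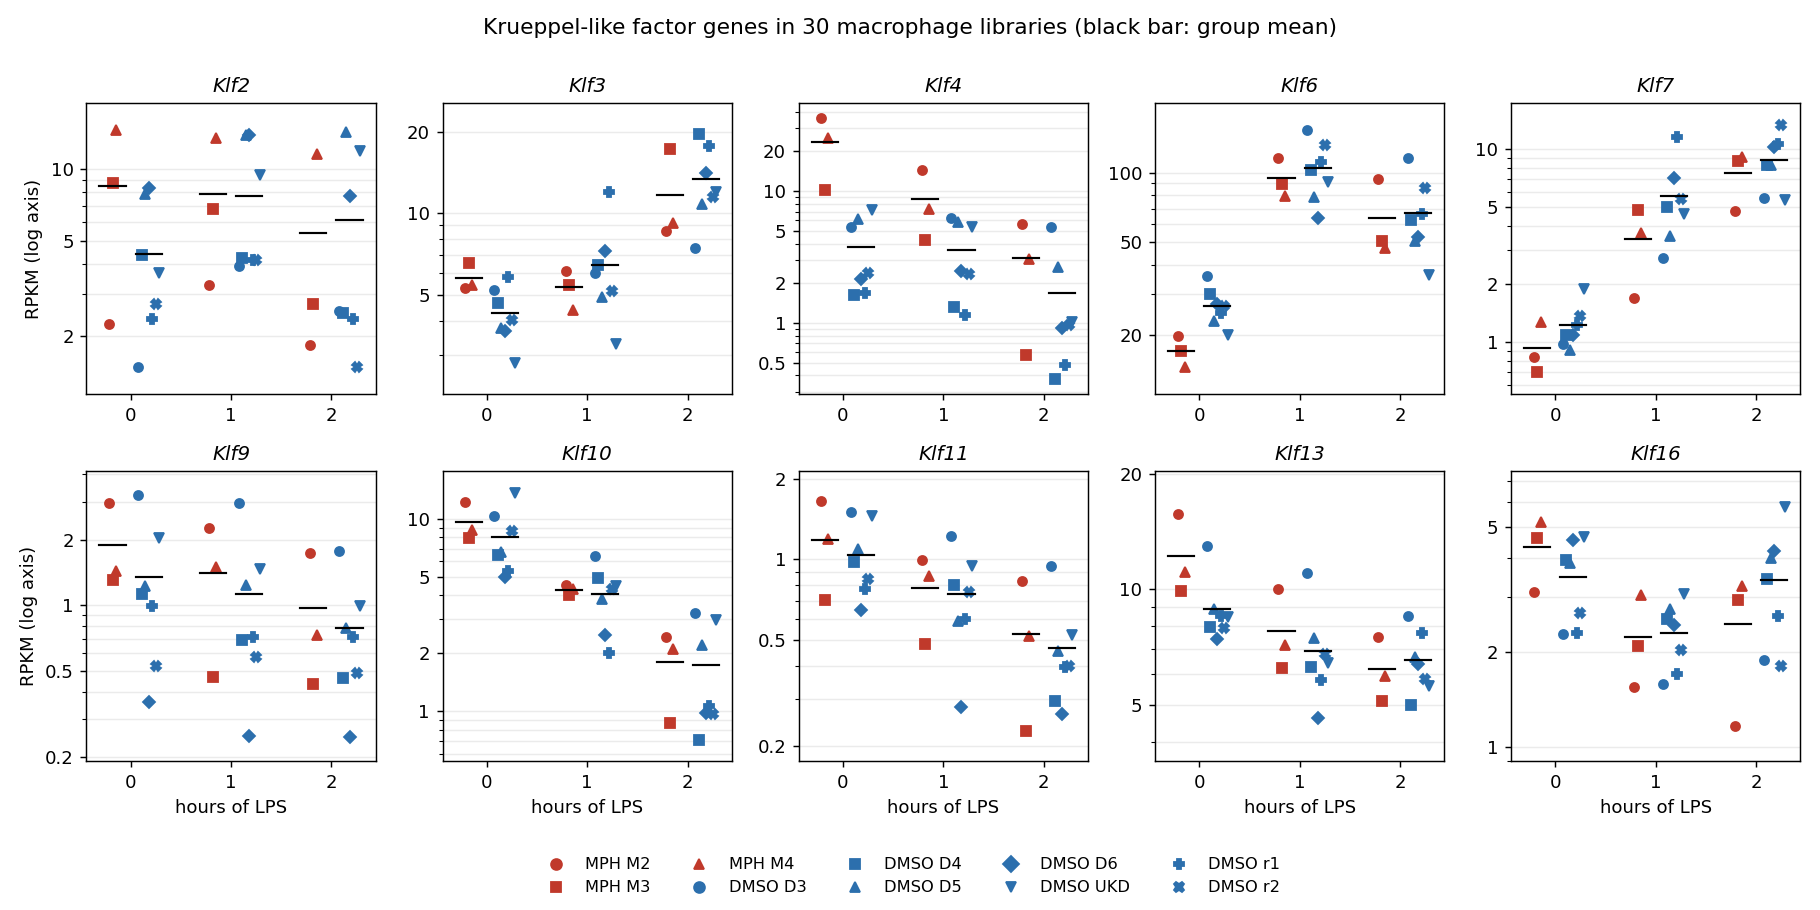
RPKM (log axis) of the 10 KLF genes in each of the 30 libraries, with a panel for each gene and MPH left of DMSO at 0, 1 and 2 h of LPS; each point is a library and each bar the group mean. Klf6 stands between 14.5 and 153 RPKM in all libraries, whereas Klf11 stands between 0.228 and 1.65 RPKM.

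The first comparison set LPS against 0 h within each treatment. Klf6, known as a co-activator of inflammatory genes, and Klf7, a family member known from neuronal and fat cell differentiation, rose in both treatments. With MPH, Klf6 stood at 19.7, 17.1 and 14.5 RPKM at 0 h in M2, M3 and M4, at 116, 89.7 and 79.0 RPKM at 1 h, and at 93.7, 50.5 and 47.2 RPKM at 2 h. With DMSO its lowest, median and highest values were 19.9, 26.7 and 35.9 RPKM at 0 h, 64.0, 103 and 153 RPKM at 1 h, and 36.2, 62.7 and 116 RPKM at 2 h. In all 10 cultures Klf6 was higher at 1 h than at 0 h and than at 2 h, and the 0 h and 1 h ranges did not overlap in either treatment. Its log2 change at 1 h was 2.43 with MPH (SE 0.34, adjusted p = 0.000165) and 1.92 with DMSO (SE 0.20, adjusted p = 6.19e-07). At 2 h it was 1.81 with MPH (SE 0.34, adjusted p = 0.00105) and 1.24 with DMSO (SE 0.20, adjusted p = 3.84e-05). These and all later changes are on the log2(RPKM + 0.5) scale, which understates those of low genes, and come from limma fits to all genes.

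Klf7 was close to 1 RPKM at 0 h and climbed through 2 h. With MPH it stood at 0.836, 0.701 and 1.27 RPKM at 0 h in M2, M3 and M4, at 1.69, 4.86 and 3.66 RPKM at 1 h, and at 4.80, 8.70 and 9.14 RPKM at 2 h. The lowest, median and highest DMSO values were 0.915, 1.09 and 1.88 RPKM at 0 h, 2.73, 5.02 and 11.5 RPKM at 1 h, and 5.46, 8.29 and 13.3 RPKM at 2 h. All 10 cultures lay higher at 1 and 2 h than at 0 h, and M2 and D3 had the lowest 1 h values of their treatments. The log2 change at 2 h was 2.46 with MPH (SE 0.33, adjusted p = 4.7e-05) and 2.40 with DMSO (SE 0.21, adjusted p = 1.85e-08). At 1 h it was 1.37 with MPH (SE 0.33, adjusted p = 0.0274) and 1.76 with DMSO (SE 0.21, adjusted p = 3.24e-06). The value with MPH lost its call without the 1 h library labelled M4 (1.28, adjusted p = 0.0875) and without the cultures D4, D5, M3 or M4 (0.97 to 1.44, adjusted p = 0.0613 to 0.497), but not with culture as a block (adjusted p = 0.000892). Reads of Klf7 and of the lncRNA genes Gm13748 and Gm35880 cannot be told apart, since the genes overlap and the use of strand is not given. The same holds for Klf3, Klf9, Klf10 and Klf13 and the genes annotated over them.

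Klf3, the CtBP-dependent repressor, rose later. With MPH it stood at 5.28, 6.51 and 5.42 RPKM at 0 h in M2, M3 and M4, at 6.11, 5.43 and 4.39 RPKM at 1 h, and at 8.56, 17.3 and 9.22 RPKM at 2 h. In DMSO cultures the lowest, median and highest values were 2.79, 4.01 and 5.82 RPKM at 0 h, 3.29, 6.02 and 12 RPKM at 1 h, and 7.44, 12 and 19.6 RPKM at 2 h. The 0 h and 2 h ranges did not overlap in either treatment, whereas the 0 h and 1 h ranges did in both. At 2 h the log2 change was 0.90 with MPH (SE 0.28, adjusted p = 0.0312) and 1.5 with DMSO (SE 0.20, adjusted p = 4.58e-06). Without D5, M2, M3 or M4 the value with MPH was 0.68 to 1.03 and not past the threshold (adjusted p = 0.0503 to 0.228), and without M3 it missed it with the block too (adjusted p = 0.074). At 1 h the change with DMSO was 0.48 (SE 0.20, adjusted p = 0.0933), which passed with culture as a block (adjusted p = 0.0135) but not with the block and without D6 (adjusted p = 0.0538) or r1 (adjusted p = 0.0533). From 1 h to 2 h under DMSO Klf3 rose by a further 1.02 (SE 0.20, adjusted p = 0.00107).

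Among the Sin3-binding repressors, Klf10 had the largest fall at 2 h on the log2 scale. Klf10 is also known as a gene induced by TGF-β. With MPH it stood at 12.2, 7.91 and 8.71 RPKM at 0 h in M2, M3 and M4, at 4.50, 4.02 and 4.31 RPKM at 1 h, and at 2.44, 0.868 and 2.09 RPKM at 2 h. The DMSO values had a lowest, median and highest of 4.96, 6.68 and 13.7 RPKM at 0 h, 2.00, 4.31 and 6.43 RPKM at 1 h, and 0.710, 1.06 and 3.23 RPKM at 2 h. All 10 cultures were lower at 1 and at 2 h than at 0 h, and the 2 h range lay below the 0 h range in both treatments. The log2 change at 2 h was -2.19 with MPH (SE 0.39, adjusted p = 0.000737) and -1.99 with DMSO (SE 0.25, adjusted p = 2.62e-06). At 1 h it was -1.06 with MPH (SE 0.39, adjusted p = 0.249, or 0.00808 with culture as a block and 0.09 with the block and without M2) and -0.89 with DMSO (SE 0.25, adjusted p = 0.016). The 1 h call with DMSO was lost without r1 (-0.84, adjusted p = 0.062), without UKD (-0.79, adjusted p = 0.0677) and after median-of-ratios scaling (-0.75, adjusted p = 0.0628). With culture as a block, it held in 7 of 7 cases with 1 culture left out (highest adjusted p = 0.00235).

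The other Sin3-binding genes moved less, and all were lower at 2 h than at 0 h in 3 of 3 MPH cultures. Klf11, a close relative of Klf10, averaged 1.18 ± 0.471 RPKM at 0 h, 0.781 ± 0.268 RPKM at 1 h and 0.525 ± 0.302 RPKM at 2 h with MPH (n = 3). With DMSO it averaged 1.04 ± 0.330 RPKM at 0 h, 0.741 ± 0.297 RPKM at 1 h and 0.467 ± 0.227 RPKM at 2 h (n = 7). Its ranges overlapped between times in both treatments, although 7 of 7 DMSO cultures were lower at 2 h. At 2 h the change of Klf11 was -0.72 with MPH (SE 0.32, adjusted p = 0.13, or 0.000436 with culture as a block), and it fell with DMSO (-0.67, SE 0.17, adjusted p = 0.00228). Klf13, a factor known from T cells, stood at 15.7, 9.89 and 11.1 RPKM at 0 h in M2, M3 and M4, at 10, 6.23 and 7.16 RPKM at 1 h, and at 7.53, 5.11 and 5.95 RPKM at 2 h. In DMSO cultures its lowest, median and highest values were 7.44, 8.46 and 13 RPKM at 0 h, 4.62, 6.43 and 11 RPKM at 1 h, and 4.99, 6.39 and 8.52 RPKM at 2 h. The 0 h and 2 h values of Klf13 did not overlap with MPH and overlapped with DMSO. Its change at 2 h was -0.92 with MPH (SE 0.28, adjusted p = 0.0264) and -0.42 with DMSO (SE 0.15, adjusted p = 0.0286). Both lost their call after median-of-ratios scaling (-0.69, adjusted p = 0.147 with MPH, and -0.17, adjusted p = 0.457 with DMSO). They lost it also without D5, M2, M3 or M4 (MPH, -0.87 to -0.95, adjusted p = 0.0522 to 0.128) and without D4, D5, r2 or UKD (DMSO, -0.38 to -0.42, adjusted p = 0.0603 to 0.0741). With culture as a block, both held in 7 of 7 cases with 1 culture left out. The highest adjusted p was then 0.000928 with MPH and 0.00166 with DMSO. With the block and median-of-ratios scaling the DMSO value missed the threshold (adjusted p = 0.0972).

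Klf16, the member with the smallest log2 change at 2 h with DMSO, averaged 4.31 ± 1.08 RPKM at 0 h, 2.23 ± 0.759 RPKM at 1 h and 2.46 ± 1.13 RPKM at 2 h with MPH (n = 3). With DMSO it averaged 3.46 ± 1.03, 2.31 ± 0.547 and 3.39 ± 1.42 RPKM at 0, 1 and 2 h (n = 7). All 10 cultures were lower at 1 h than at 0 h, and at 2 h the MPH cultures remained lower in 3 of 3 and the DMSO cultures in 4 of 7. With MPH the change of Klf16 was -0.83 at 1 h (SE 0.33, adjusted p = 0.314, or 0.000586 with culture as a block) and -0.76 at 2 h (SE 0.33, adjusted p = 0.111, or 0.000276 with the block). It fell at 1 h with DMSO (-0.48, SE 0.16, adjusted p = 0.0404), a call that was lost without any of D4, D5, D6, r1, r2 or UKD (-0.43 to -0.50, adjusted p = 0.072 to 0.109) and after median-of-ratios scaling (-0.34, adjusted p = 0.22). With culture as a block, that call held in 7 of 7 cases with 1 culture left out (highest adjusted p = 0.00279). Klf9, known as a gene induced by glucocorticoids, was at 2.94, 1.31 and 1.44 RPKM at 0 h in M2, M3 and M4, at 2.27, 0.469 and 1.5 RPKM at 1 h, and at 1.74, 0.433 and 0.731 RPKM at 2 h. With DMSO its lowest, median and highest values were 0.360, 1.13 and 3.20 RPKM at 0 h, 0.249, 0.717 and 2.94 RPKM at 1 h, and 0.248, 0.712 and 1.78 RPKM at 2 h. All 10 cultures were lower at 2 h, but the spread between cultures was wider than this change. The change of Klf9 at 2 h was -0.74 with MPH (SE 0.58, adjusted p = 0.411) and -0.46 with DMSO (SE 0.32, adjusted p = 0.232), which passed within cultures (block adjusted p = 0.00175 with MPH and 0.000272 with DMSO). The Klf9 value with the fewest reads behind it, 0.249 RPKM in D6 at 1 h, rested on about 6.01 reads.

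Klf4 and Klf2 are known as brakes on macrophage activation, and no test compared their LPS changes. At 2 h both were lower than at 0 h in 3 of 3 MPH cultures. With DMSO at 2 h Klf4 was lower in 6 of 7 cultures and Klf2 in 3 of 7. With MPH, Klf4 stood at 35.8, 10.2 and 25.4 RPKM at 0 h in M2, M3 and M4, at 14.4, 4.30 and 7.38 RPKM at 1 h, and at 5.66, 0.574 and 3.08 RPKM at 2 h. Lowest, median and highest values with DMSO were 1.62, 2.40 and 7.17 RPKM at 0 h, 1.15, 2.50 and 6.30 RPKM at 1 h, and 0.377, 0.974 and 5.37 RPKM at 2 h. All 3 MPH cultures were lower at 1 h than at 0 h and lower again at 2 h, without overlap between 0 h and 2 h, whereas 6 of 7 DMSO cultures were lower at 2 h than at 0 h and D3 was not. At 2 h Klf4 fell by 2.91 on the log2 scale with MPH (SE 0.76, adjusted p = 0.0115) and by 1.10 with DMSO (SE 0.40, adjusted p = 0.0256). The call with MPH was lost without M3 (-2.71, adjusted p = 0.0558) and without M4 (-2.94, adjusted p = 0.0867). The call with DMSO was lost without r1 (-1.09, adjusted p = 0.0615), r2 (-1.12, adjusted p = 0.0541) or UKD (-0.90, adjusted p = 0.0993) and after median-of-ratios scaling (-0.90, adjusted p = 0.0946). These losses are from the fits without culture as a block. With the block, both 2 h calls held in 7 of 7 cases with 1 culture left out. The highest adjusted p was then 7.79e-06 with MPH and 0.000218 with DMSO. At 1 h the change was -1.39 with MPH (SE 0.76, adjusted p = 0.655, or 0.000597 with culture as a block) and -0.10 with DMSO (SE 0.40, adjusted p = 0.887, or 0.641 with the block).

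Klf2 differed so much between cultures that no LPS change passed without the block. With MPH it stood at 2.24, 8.75 and 14.6 RPKM at 0 h in M2, M3 and M4, at 3.28, 6.80 and 13.5 RPKM at 1 h, and at 1.82, 2.71 and 11.6 RPKM at 2 h. In DMSO cultures the lowest, median and highest values were 1.48, 3.66 and 8.32 RPKM at 0 h, 3.93, 4.25 and 14 RPKM at 1 h, and 1.48, 2.55 and 14.3 RPKM at 2 h. Ranges overlapped between all times in both treatments, and M2 was lowest and M4 highest at each time. At 1 h the log2 change was 0.00 with MPH (SE 0.82, adjusted p = 1) and 0.73 with DMSO (SE 0.41, adjusted p = 0.217, or 0.00723 with the block), with 6 of 7 DMSO cultures higher. At 2 h it was -0.70 with MPH (SE 0.82, adjusted p = 0.609, or 0.0424 with the block) and 0.22 with DMSO (SE 0.41, adjusted p = 0.676). The block call with MPH was lost without M3 (-0.28, adjusted p = 0.46), without D6 (-0.70, adjusted p = 0.0575) and after median-of-ratios scaling (-0.48, adjusted p = 0.182).

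**Figure D2:**
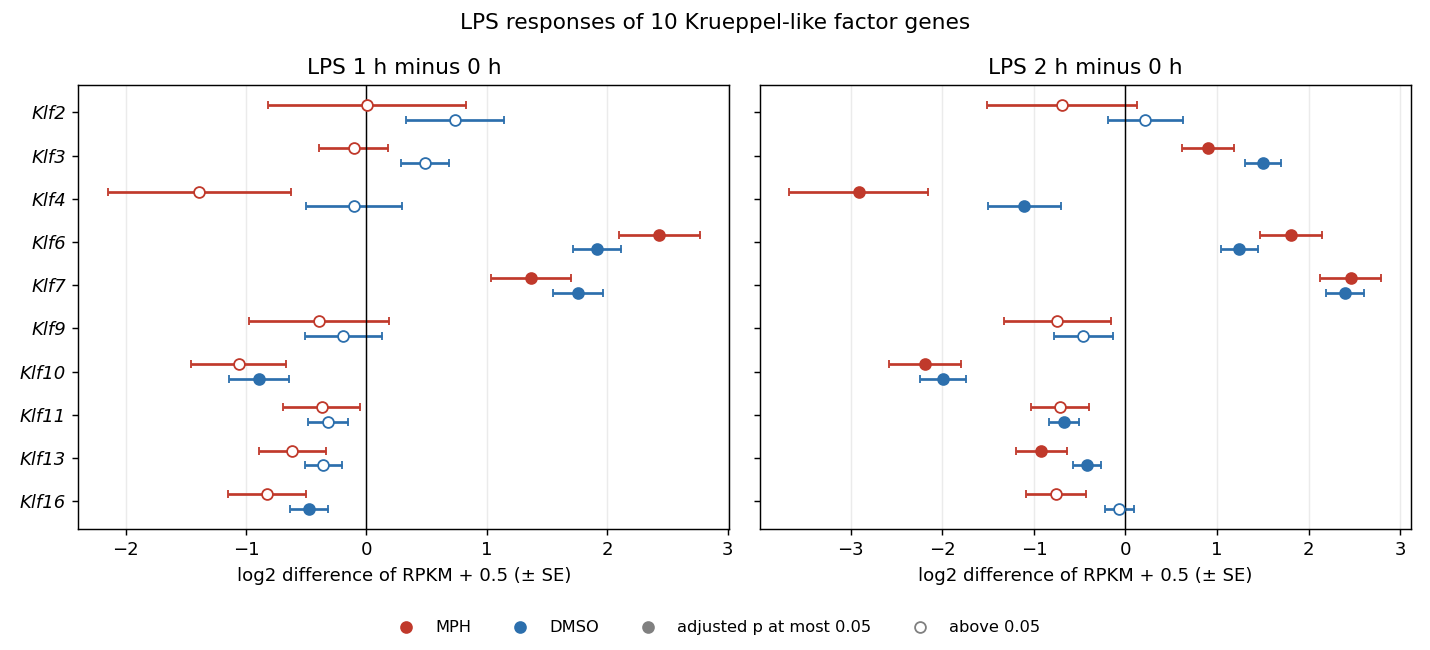
Log2 difference of RPKM + 0.5 between LPS and 0 h, with SE, for each KLF gene at 1 h (left) and 2 h (right), MPH above DMSO; filled points had an adjusted p of at most 0.05. Klf6 and Klf7 lie to the right at both times, and Klf10 at -2.19 with MPH and -1.99 with DMSO lies to the left at 2 h.

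Counted over the family, 2 of 10 genes passed at 1 h with MPH, both higher, where 3.08% of 10239 genes passed (1.89% higher and 1.18% lower). With DMSO at 1 h 4 of 10 passed, 2 higher and 2 lower, where 20.3% of 10212 genes passed (5.24% higher and 15% lower). At 2 h 6 of 10 passed with MPH, 3 higher and 3 lower, where 20.7% of all genes passed (5.97% higher and 14.7% lower). With DMSO at 2 h 7 of 10 passed, 3 higher and 4 lower, where 54.1% of all genes passed (10.5% higher and 43.6% lower). Between 2 h and 1 h of LPS under DMSO, 4 of 10 passed, 2 higher and 2 lower, where 22% of all genes passed (6.59% higher and 15.4% lower). Klf3 and Klf7 (0.64, SE 0.21, adjusted p = 0.0303) rose over that hour, and Klf10 (-1.10, SE 0.25, adjusted p = 0.00367) and Klf6 (-0.67, SE 0.20, adjusted p = 0.0194) fell. The call of Klf7 was lost without D4, D5 or r2 (0.55 to 0.64, adjusted p = 0.071 to 0.122) and that of Klf6 without D4, r1, r2 or UKD (-0.57 to -0.68, adjusted p = 0.0501 to 0.0901). Against 0 h, Klf6 and Klf7 at both times and Klf3 at 2 h were called higher with DMSO. Without median-of-ratios scaling this was the smaller of the 2 directions over all genes. After that scaling it was the larger at 1 h (6.79% against 5.15%), and at 2 h the split was close to even (18.3% against 18.9%). With culture as a block, 6 of 10 (12.1% of all genes) and 8 of 10 (53.5%) passed at 1 h with MPH and with DMSO, and 10 of 10 (54.5%) and 8 of 10 (76.9%) at 2 h. Between 2 h and 1 h with DMSO 9 of 10 passed with it (49.2%), of which Klf2 and Klf9 lost their call when single cultures were left out (highest adjusted p = 0.136 and 0.0879). The median log2 change of the 10 genes was -0.38 with MPH at 1 h (-0.09 over all genes tested) and -0.73 at 2 h (-0.23 over all). With DMSO it was -0.15 at 1 h (-0.15 over all) and -0.24 at 2 h (-0.25 over all). After median-of-ratios scaling, 3 of 10 passed at 1 h with DMSO, all higher, where 6.79% of all genes were higher and 5.15% lower. At 2 h 5 of 10 passed, 3 higher and 2 lower, where 37.2% of all genes passed (18.3% higher and 18.9% lower). That scaling moved the median change of all genes with DMSO at 1 h to -0.00 in place of -0.15, and at 2 h to -0.01 in place of -0.25.

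Without the 1 h library labelled M4, Klf6 alone passed at 1 h with MPH (2.55, SE 0.38, adjusted p = 5e-04), where 3.15% of genes passed. The changes of the other genes were then 1.28 for Klf7, 0.01 for Klf3, -1.07 for Klf10, -0.43 for Klf11, -0.57 for Klf13, -1.03 for Klf16, -0.49 for Klf9, -1.35 for Klf4 and -0.47 for Klf2 (adjusted p = 0.0875 to 0.991). With culture as a block and without this library 7 of 10 passed (12.5% of all genes). Klf9 passed there (-0.59, adjusted p = 0.0357) and not with the library (-0.39, adjusted p = 0.134). The block calls of Klf4 (-1.21, adjusted p = 0.00526), Klf6 (2.41, adjusted p = 9.82e-07), Klf7 (1.43, adjusted p = 0.00314), Klf10 (-1.03, adjusted p = 0.0291), Klf13 (-0.61, adjusted p = 0.0127) and Klf16 (-0.86, adjusted p = 0.00243) were made with and without it.

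Whether MPH altered the family before and during LPS was asked by setting M2 to M4 against D3 to D6 at each time. None of the 10 genes passed in limma at 0 h, where 0.869% of 10239 genes passed, none at 1 h (0% of genes) and none at 2 h (0.869%). These fits treat all libraries as independent, although libraries of the same culture deviated together from their group means (r = 0.629 to 0.915). Over all expressed genes D3 with M2, D4 with M3 and D5 with M4 deviated together as well (r = 0.741 to 0.906 at each time). The labels do not say what these cultures share, so no block was formed from them, and a p that misses the threshold here does not show that levels were alike. At an unadjusted p under 0.05 there were 2 at 0 h (Klf4 and Klf6), 0 at 1 h and 0 at 2 h. Before LPS, Klf4 stood furthest apart, at 35.8, 10.2 and 25.4 RPKM in M2, M3 and M4, against 5.34, 1.62, 6.13 and 2.17 RPKM in D3, D4, D5 and D6. None of the MPH cultures came down to the highest of the 7 DMSO cultures, UKD at 7.17 RPKM. The log2 difference was 2.49 (SE 0.71, adjusted p = 0.152). An exact two-sided permutation test of this single gene gave p = 0.0286, the smallest that 35 arrangements allow, 1 of 30 such tests over genes and times. Against all 7 DMSO cultures with the name series as a covariate the log2 difference was 2.35 (SE 0.59, adjusted p = 0.0283), and 2.47% of 10355 genes passed there. Over 18 alternative settings the adjusted p of Klf4 ran from 0.0173 to 0.497, and it passed in the 2 that used all 7 DMSO cultures.

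Klf6 lay in the other direction. It stood at 19.7, 17.1 and 14.5 RPKM in M2, M3 and M4 at 0 h, against 35.9, 30, 22.9 and 27.2 RPKM in D3, D4, D5 and D6. No MPH culture reached the lowest of the 7 DMSO cultures, although M2 (19.7 RPKM) and UKD (19.9 RPKM) were close. The log2 difference was -0.74 (SE 0.31, adjusted p = 0.603; exact permutation p = 0.0286). Klf3 was at 5.28, 6.51 and 5.42 RPKM in M2, M3 and M4, against 5.18, 4.66, 3.75 and 3.65 RPKM in D3 to D6, again without overlap, but r1 at 5.82 RPKM lay within the MPH range (0.38, SE 0.27, adjusted p = 1; exact permutation p = 0.0571). These 3 of 10 genes did not overlap at 0 h, where 7.54% of all genes did not. At 1 h none of the 10 was free of overlap (1.48% of all genes), nor at 2 h (9.5%), and none was at 1 h without the library labelled M4 (14.5%).

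The other 7 genes differed by -0.10 (Klf7) to 0.49 (Klf2) on the log2 scale at 0 h, each with an adjusted p = 1. At 1 h Klf4 stood at 14.4, 4.30 and 7.38 RPKM in MPH cultures, against 6.30, 1.32, 5.87 and 2.50 RPKM in D3 to D6, a log2 difference of 1.08 (SE 0.71, adjusted p = 1). M3 lay inside the DMSO range at that time. Without the 1 h library labelled M4 none of the 10 genes passed at 1 h either, where 1.34% of genes did, and Klf4 was at 1.11 (SE 0.83, adjusted p = 0.747). At 2 h the difference of Klf4 was 0.39 (SE 0.71, adjusted p = 1), with M2 (5.66 RPKM) and D3 (5.37 RPKM) the highest libraries of their treatments and M3 (0.574 RPKM) and D4 (0.377 RPKM) the lowest. Among the rest, Klf16 had the lowest adjusted p at 2 h (-0.43, SE 0.31, adjusted p = 0.859).

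The last comparison set the LPS response with MPH against that with DMSO. Klf4 had the largest difference of the 10 genes. From 0 h to 2 h its log2 change was -2.56, -3.32 and -2.85 in M2, M3 and M4, against 0.01, -1.27, -1.06 and -0.92 in D3, D4, D5 and D6. The 3 MPH changes were below those of D3 to D6, and UKD, r1 and r2 had -2.35, -1.15 and -0.98, all above the MPH changes as well. In the fit without a block the difference was -2.10 (SE 1.01, adjusted p = 1), and none of the 10 genes passed in limma at 1 h (0% of genes) or at 2 h (0.107%), nor had any an unadjusted p under 0.05 (0 at both times). With culture as a block, which compares each culture with its own 0 h library, the difference at 2 h was again -2.10 but with an SE of 0.29 (adjusted p = 0.00162), and 1.43% of genes passed. With the block it passed in 7 of 7 cases with 1 culture left out (-2.28 to -1.83, adjusted p = 0.00238 to 0.0123). It also passed with the block without the 1 h library labelled M4 (adjusted p = 0.00106) and after median-of-ratios scaling (adjusted p = 0.00201). Over 26 alternative settings it passed in 10, each with the block and with D3 to D6 as the DMSO cultures. With all 7 DMSO cultures and the covariate, without a block, the difference was -1.81 (SE 0.81, adjusted p = 0.708).

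At 1 h the difference of Klf4 was -1.41 (SE 1.01 and adjusted p = 1 without the block, SE 0.29 and adjusted p = 0.0747 with it). Without the 1 h library labelled M4 it was -1.38 (adjusted p = 0.999) without the block and -1.24 (adjusted p = 0.188) with it. No other KLF gene passed with the block at 2 h. Klf16 was at -0.65 (block adjusted p = 0.0843), Klf6 at 0.61 (block adjusted p = 0.181) and Klf13 at -0.47 (block adjusted p = 0.19). This comparison uses the same 0 h libraries as that of MPH with DMSO before LPS, so the value of Klf4 here and its 2.49 at 0 h are not separate observations.

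**Figure D3:**
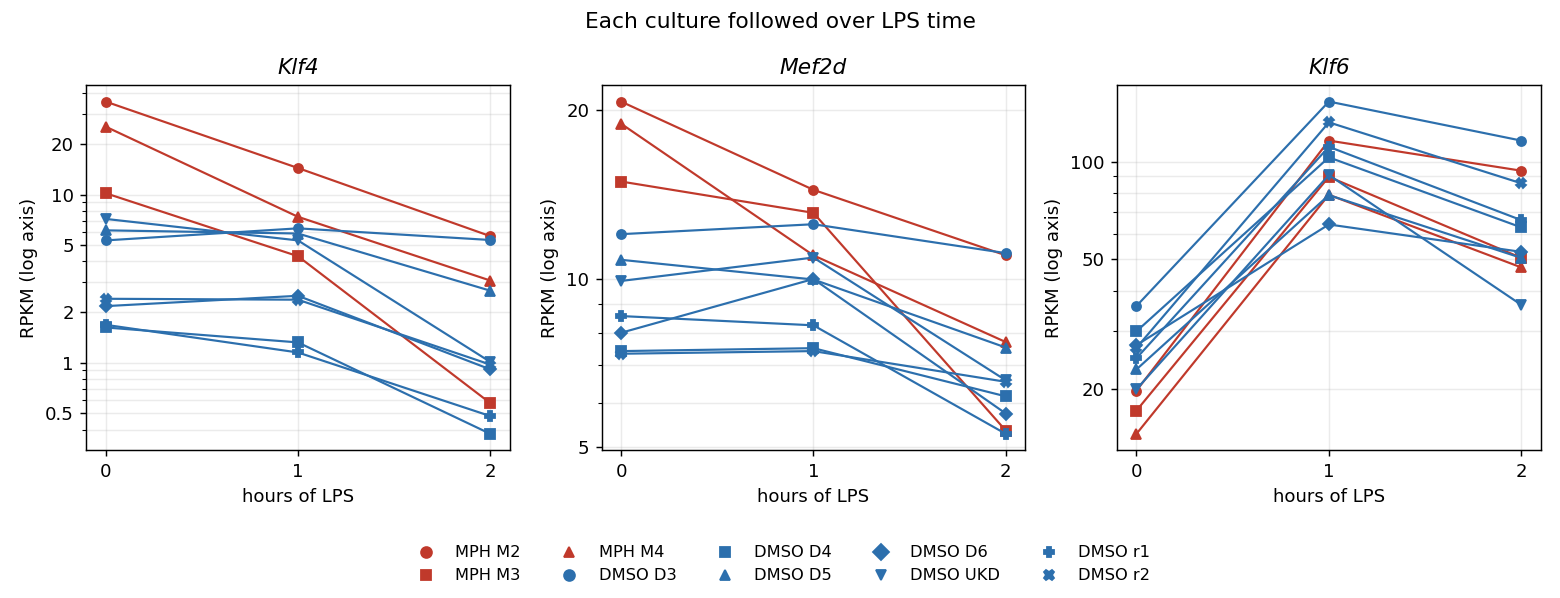
RPKM (log axis) of Klf4, Mef2d and Klf6 over 0, 1 and 2 h of LPS, with each line 1 culture, MPH in red and DMSO in blue. Klf4 in the 3 MPH cultures lies above the DMSO cultures at 0 h and reaches 5.66, 0.574 and 3.08 RPKM at 2 h, whereas Klf6 peaks at 1 h in all 10 cultures.

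Cultures of a treatment differed in their KLF levels, for some genes and cultures in a way that held over LPS time. For others it did not. Klf7 in UKD deviated from its group means by 0.492, -0.171 and -0.584 on the log2 scale at 0, 1 and 2 h. Klf3 in D3 deviated by 0.283 at 0 h and -0.738 at 2 h. The ratio of the highest to the lowest culture reached 14.2 for Klf4 at 2 h with DMSO, 11.8 for Klf9 at 1 h with DMSO and 9.71 for Klf2 at 2 h with DMSO, but was 1.81 for Klf6 and 1.74 for Klf13 at 0 h with DMSO. Klf4, Klf9, Klf10, Klf11 and Klf13 lay above their group means in M2 and in D3 at all 3 times. Klf2 and Klf16 lay below their group means in the same 2 cultures and above them in M4, D5 and D6 at all 3 times. After subtraction of the mean of each treatment and time, Klf9 correlated with Klf11 at r = 0.896 and with Klf13 at 0.834, and Klf2 with Klf16 at 0.812. Klf6 correlated with Klf16 at -0.824 and with Klf2 at -0.742, and Klf3 with Klf4 at -0.721. These describe 30 libraries of 10 cultures, which share cultures and differ in depth.

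**Figure D4:**
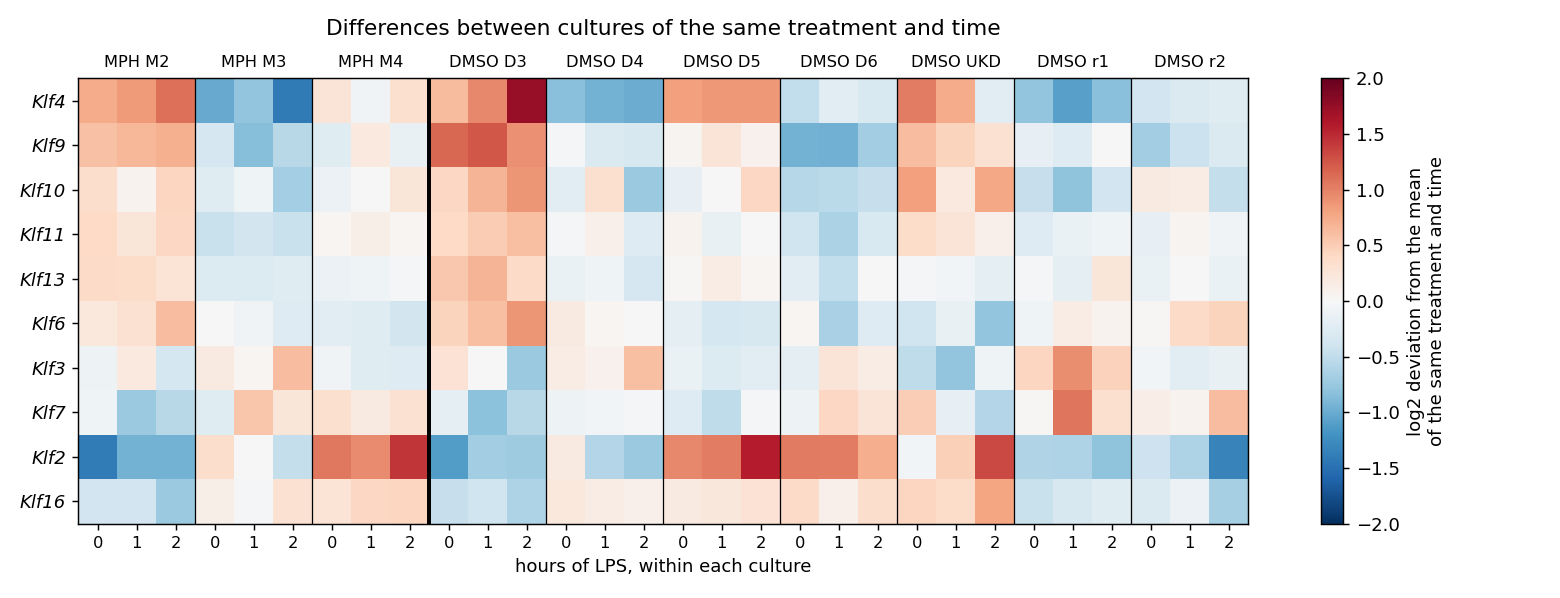
Log2 deviation of each library from the mean of its treatment and time (colour scale) for the 10 KLF genes, by culture and hours of LPS, MPH cultures left of DMSO cultures. The upper 5 genes are red in M2 and D3, where Klf2 and Klf16 in the bottom lines are blue.

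The genes most like each KLF gene over the 30 libraries were found among 10115 tested genes by Pearson correlation of log2(RPKM + 0.5), which follows LPS time and culture alike and is given as a description. Klf4 was most like Mef2d (r = 0.948), which encodes a MEF2 transcription factor, followed by Gpat3 (0.916) and Runx3 (0.883). Mef2d stood at 20.7, 14.9 and 18.9 RPKM at 0 h in M2, M3 and M4, against 12, 7.42, 10.8 and 8.0 RPKM in D3 to D6, without overlap (log2 difference 0.91, SE 0.25, adjusted p = 0.121). Klf6 was most like Lilr4b (0.918), Rasgef1b (0.905) and the immediate-early gene Egr2 (0.901). Klf7 was most like Cd40 (0.95), which encodes a co-stimulatory receptor, Dyrk2 (0.947) and Dusp16 (0.937), and Klf3 was most like Heca (0.938), Tshz1 (0.929) and the death receptor gene Fas (0.915). For Klf10 the nearest were Tspan14 (0.928), Ercc4 (0.925) and Swsap1 (0.922), for Klf11 Glud1 (0.917), H6pd (0.917) and Def8 (0.908), and for Klf9 Ikbkg (0.908), Gbe1 (0.899) and Rnf128 (0.897). Klf16 was most like Bahd1 (0.933), Ercc2 (0.918) and Fam207a (0.897), Klf13 most like Cds2 (0.87), Tmem43 (0.86) and BC004004 (0.855), and Klf2 most like Fxr2 (0.855), Uqcrq (0.849) and Jund (0.847).

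Genes around the family were counted in lists, which were chosen with earlier results of these data known, so the counts are descriptions. Among the Sp relatives, Sp3, which encodes a factor that binds GC boxes, fell with DMSO by 0.52 at 1 h (adjusted p = 0.022) and by 1.13 at 2 h (adjusted p = 6.56e-06), and Sp2 rose at 2 h (0.31, adjusted p = 0.00764). With MPH the changes of Sp3 were -0.07 at 1 h (adjusted p = 1) and -0.69 at 2 h (adjusted p = 0.0721), and that of Sp2 at 2 h was 0.31 (adjusted p = 0.311). At 1 h with MPH none of the 3 tested Sp genes passed without the library labelled M4 either. The LPS response of Sp3 differed between MPH and DMSO by 0.50 at 2 h (adjusted p = 1). MEF2 factors, the kinase ERK5 (Mapk7) that activates them and the class II deacetylases that bind them form the known route to Klf2 and Klf4 transcription. Of 11 such genes, none passed for MPH against DMSO at 0, 1 or 2 h (0.869%, 0% and 0.869% of all genes), and none rose after LPS. At 2 h 3 fell with MPH, Mef2d (-1.17, adjusted p = 0.00442), Hdac5 (-0.89, adjusted p = 0.0314) and Hdac9 (-1.33, adjusted p = 0.0455), and 6 fell with DMSO, among them Hdac5 (-0.86, adjusted p = 0.000236), Hdac7 (-0.64, adjusted p = 0.00093), Mapk7 (-0.75, adjusted p = 0.00137) and Mef2c (-0.68, adjusted p = 0.00989). Over all genes 14.7% were lower with MPH and 43.6% with DMSO at that time. The median of the list at 2 h was -0.55 with MPH, against -0.23 over all genes, and -0.37 with DMSO, against -0.25. At 1 h none passed with MPH, with or without the library labelled M4, and Mapk7 fell with DMSO (-0.50, adjusted p = 0.0496). Hdac5 in the MPH cultures, picked here after its values were seen, lay above all 7 DMSO cultures at each time. At 0 h it stood at 18.8, 23 and 29.1 RPKM in M2, M3 and M4, against at most 16.1 RPKM with DMSO. At 1 h it stood at 13.9, 18.3 and 13 RPKM, against at most 11.5 RPKM. At 2 h it stood at 13.7, 10.8 and 12.6 RPKM, against at most 8.07 RPKM. Against D3 to D6, 7.54%, 1.48% and 9.5% of all genes did not overlap at 0, 1 and 2 h. Of 19 tested genes of KLF co-repressors, co-activators and ubiquitin ligases, 1 rose and 4 fell at 2 h with MPH (median -0.29, against -0.23 over all genes), and 1 rose and 11 fell with DMSO (median -0.29, against -0.25). Over all genes 5.97% were higher and 14.7% lower with MPH, and 10.5% higher and 43.6% lower with DMSO. At 1 h none passed with MPH, with or without the library labelled M4, and 2 fell with DMSO (15% of all genes). Fbxw7, which encodes a ubiquitin ligase subunit, fell in both (-0.87, adjusted p = 0.00794 with MPH and -1.04, adjusted p = 2.74e-07 with DMSO). So did Ctbp2, the gene of a co-repressor that Klf3 binds (-0.55, adjusted p = 0.0128 with MPH and -0.28, adjusted p = 0.00503 with DMSO). Sin3a, the gene of a co-repressor of the Klf10 group, fell with DMSO at 2 h (-0.30, adjusted p = 0.0333). Wwp1, which encodes a ubiquitin ligase known to act on KLF proteins, was the 1 gene of this list that differed between MPH and DMSO, at 2 h (-0.88, adjusted p = 0.0333).

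Of 12 genes known as KLF targets in other cells, 8 were tested. Before LPS 2 were higher with MPH and none lower, where 0.674% of all genes were higher and 0.195% lower. That these 2 are known KLF targets follows from how the list was made. This list too was chosen with earlier results of these data known, so its count beside these shares is a description and not a test. Thbd, which encodes the anticoagulant receptor thrombomodulin, averaged 9.35 ± 1.58 RPKM with MPH (n = 3) and 1.94 ± 0.513 RPKM with DMSO (n = 7), a log2 difference of 2.05 against D3 to D6 (adjusted p = 0.0188). Cdkn1a, which encodes the cell cycle inhibitor p21, averaged 161 ± 16.6 RPKM with MPH (n = 3) and 74.0 ± 11.6 RPKM with DMSO (n = 7), a log2 difference of 0.98 (adjusted p = 0.00728). At 1 h of LPS 2 rose and 1 fell with MPH (1.89% and 1.18% of all genes), or 2 and 0 without the library labelled M4, and 3 rose and 2 fell with DMSO (5.24% and 15%). At 2 h 3 rose and 1 fell with MPH (5.97% and 14.7%), and 4 rose and 3 fell with DMSO (10.5% and 43.6%). At 2 h Thbd fell in both treatments (-3.34 with MPH and -1.86 with DMSO), while Hif1a (1.35 with MPH and 0.87 with DMSO) rose in both. Cdkn1a was the 1 listed gene whose 2 h LPS response differed between treatments without a block (-1.51, adjusted p = 0.0216, where 0.107% of all genes passed). Other inputs than KLF proteins reach these genes, and their part in the values was not tested.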

How the data were processed

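The authors deposited RPKM values for 44401 transcripts in 30 libraries. Per the submitters' processing notes, FastQC, cutadapt, HISAT2 and SAMtools were used on the build mm9, with no versions given; how reads were counted, and whether by strand, is not given in the sources used. Every value column matched 1 library by name. Low values fall in steps of 1 read, which gave the approximate depths: 99.86% of the values of 8198 transcripts that never reached 0.1 RPKM were whole steps, with a tolerance of 0.01.

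Each symbol was represented by the transcript with the highest mean. The scale was log2(RPKM + 0.5). The tests were limma-trend fits (limma 3.58.1, R 4.3.3) to all genes that reached 1 RPKM in 3 or more of the fitted libraries, with Benjamini-Hochberg adjustment and a threshold of 0.05. Comparisons that involve MPH came from 21 libraries (M2 to M4 and D3 to D6, 10239 genes), and the LPS response with DMSO from all 21 DMSO libraries (10212 genes), where name series was a covariate. Single genes were also tested by exact permutation of cultures. Libraries of the same culture deviated together from their group means in all 30 pairs (r = 0.629 to 0.915), so culture served as a block in a paired alternative for LPS comparisons. Cultures D and M of the same number did not (r = -0.645 to -0.358). Median-of-ratios scaling divides each library by the median ratio of its genes to their geometric means. Promoter sequences came from RefSeq (GRCm38.p6), with entries for 8 of 10 genes, and coordinates of the 2 builds were not mixed. The tests were run on simulated data in which all libraries were independent. Those data lack the shared deviation of libraries of a culture, so they cannot show how the tests behave under it.

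Named genes are the 10 KLF genes, the 3 genes most like each, and up to 4 genes past the threshold per list and comparison. The genes, lists and this rule were chosen with earlier results of these data known. Ctbp2 and Sin3a with DMSO, and Hdac5 for MPH against DMSO, fall outside the rule and were named after their values were seen.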

Additional observations from a re-analysis of the deposited data

Results flagged for a closer look

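Within a group of cultures, the gap rule asks whether the highest or lowest library stands further from its neighbour than Dixon's critical value allows. It was met in 2 of the 30 KLF gene and time groups tested, all of them with DMSO. Chance gives about 1 in 20, or 1.5 of 30, so 2 is close to the chance count. The MPH groups, with 3 libraries each, were not tested. Both were libraries of the DMSO culture D3. Klf13 stood at 13 RPKM in D3 at 0 h, and Klf11 stood at 0.942 RPKM in D3 at 2 h, each above the other 6 DMSO cultures of that time.

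The LPS response of Klf4 at 2 h differed between MPH and DMSO in a test of the difference itself with culture as a replicate block (-2.10 on the log2 scale, adjusted p = 0.00162), and not without the block (adjusted p = 1). The log2 changes were -2.56, -3.32 and -2.85 in M2, M3 and M4, against 0.01 to -1.27 in D3 to D6.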

How the results depend on the processing

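With culture as a replicate block the counts of KLF genes past the threshold were 6 and 10 under MPH at 1 and 2 h of LPS, 8 and 8 under DMSO at 1 and 2 h, 9 between 2 h and 1 h under DMSO and 1 for the difference of LPS responses at 2 h. The cause of this and the other shifts was not tested. With the D and M number as a block, although these numbers did not pair cultures, 3 KLF genes passed for MPH against DMSO at 0 h, where 8.7% of all genes passed. At 2 h 1 passed, where 7.84% of all genes passed. Klf2 was at 1.88 and Klf6 at -1.25 at 0 h. Without a filter on low values, and without the 1 h library labelled M4, 1 gene passed under MPH at 1 h. Without the shallow 1 h libraries 2 passed under DMSO at 1 h. With D3 to D6 alone the DMSO counts were 2 at 1 h, 4 at 2 h and 0 between 2 h and 1 h (no KLF gene had an adjusted p of at most 0.05 in limma; this fit has fewer libraries). With all 7 DMSO cultures, with or without the covariate, 1 passed for MPH against DMSO at 0 h (2.47% of all genes with the covariate). Settings chosen after seeing the data were the block with median-of-ratios scaling (6 under MPH at 1 h, 7 between 2 h and 1 h, 1 for the difference at 2 h), the block without the 1 h library labelled M4 (7, 10 and 1 under MPH at 1 h, at 2 h and for the difference at 2 h, where 12.5%, 56% and 2.35% of all genes passed) and DMSO without UKD and r2 (2 at 1 h and 2 between 2 h and 1 h). Where no share over all genes is given here or above, counts describe the 10 KLF genes only. A change in such a count cannot be told apart from a change in calls over all genes.

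Leaving out 1 culture gave counts of 1 to 2 under MPH at 1 h (5 to 6 with the block), 3 to 6 at 2 h (8 to 10), 2 to 5 under DMSO at 1 h (7 to 8), 5 to 7 at 2 h (7 to 8) and 2 to 6 between 2 h and 1 h (6 to 8). Counts for MPH against DMSO stayed at 0, and those for the difference were 0 to 0 at 1 h (0 to 1) and 0 to 0 at 2 h (1 to 1). The fits with the block and 1 culture left out, among them the 7 of 7 cases above, were also chosen after seeing the data. No share over all genes is given for the fits with 1 culture left out. Of the results for single genes under all settings, 1952 kept their direction and side of the threshold, 175 gained a call, 70 lost one, 114 moved and none with a call changed direction. Median-of-ratios scaling moved the split of all genes with DMSO at 2 h to 1866 higher and 1932 lower, in place of 1075 and 4454. Depth limits the low genes, with about 6.01 reads of Klf9 and 6.16 of Klf11 in D6 at 1 h.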
